A study of Mus musculus with 12 samples.

Results

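Messenger RNA of 9 genes of retinoic acid uptake, synthesis, breakdown and response was followed across 12 libraries of sorted mouse embryo cells. The 9 genes were Stra6, Rdh10, Dhrs3, Aldh1a2, Cyp26a1, Crabp1, Crabp2, Rarb and Rarg, of the 38924 genes with counts in each library, and all 9 passed the filter on low counts that kept 14170 genes. They were named as a pathway and picked with their levels in these same libraries already known, above all the difference between the 2 cardiac fractions. Their levels and differences are therefore given as a description, without a test.

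All cells came from embryos of the Foxa2Cre:Rosa26-YFP mouse line at E7.25. In this line a Cre recombinase driven by Foxa2 switches on a yellow fluorescent protein (YFP) at the Rosa26 locus, and the mark is kept by descendants of a cell that once expressed Foxa2. The labels give 3 libraries each of YFP+ cardiac mesoderm, called ventricular, YFP- cardiac mesoderm, called non-ventricular, EPCAM+ endoderm, and KDR+ hematopoietic mesoderm. All 4 types carry the same alleles, and no treatment is named. YFP records past Foxa2 activity, not present chamber identity. The labels do not say whether libraries came from separate embryos, litters or pools, so the p-values below measure only the spread between these libraries.

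Retinoic acid is a small signalling molecule made inside cells from vitamin A (retinol) and is known for setting the posterior and atrial identity of the early heart field. Retinol reaches cells bound to the carrier Rbp4 and enters through the membrane receptor Stra6, is oxidised to retinal by Rdh10 and then to retinoic acid by Aldh1a2, while Dhrs3 turns retinal back to retinol. Crabp1 and Crabp2 bind retinoic acid in the cytoplasm, Cyp26a1 destroys it, and the nuclear receptors Rarb and Rarg, paired with RXR proteins, switch genes on or off in response to it.

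A retinoic acid receptor classically binds a response element made of a pair of direct repeats spaced by 5 bases. The sequences shown are the 250 bases before the start site of the 2 members whose window held such an element, because transcription of both genes is known to be driven by retinoic acid, so their RNA is commonly read as a sign of response. They are RefSeq sequences of GRCm38.p6, written 5′ to 3′ on the strand of the gene, with the matched 16 bases in capitals. The Cyp26a1 window lies at chr19:37697558-37697807 on the plus strand, and its match reads on the opposite strand of the window.
Cyp26a1: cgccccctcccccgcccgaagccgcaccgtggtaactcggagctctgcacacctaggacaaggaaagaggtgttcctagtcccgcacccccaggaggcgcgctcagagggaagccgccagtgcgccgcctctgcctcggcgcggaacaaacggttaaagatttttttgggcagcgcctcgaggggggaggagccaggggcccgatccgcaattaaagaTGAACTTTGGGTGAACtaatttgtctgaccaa
Rarb: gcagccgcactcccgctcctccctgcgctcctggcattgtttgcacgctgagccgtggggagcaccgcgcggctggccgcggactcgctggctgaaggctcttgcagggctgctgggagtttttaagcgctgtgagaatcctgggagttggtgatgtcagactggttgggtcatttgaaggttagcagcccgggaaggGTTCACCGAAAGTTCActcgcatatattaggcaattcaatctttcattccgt
The Rarb window lies at chr14:16575477-16575726 on the minus strand of the chromosome. The motif was searched on both strands as GTTCANNNNNNGTTCA, GTTCANNNNNNGGTCA, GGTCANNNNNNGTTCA and GGTCANNNNNNGGTCA, where N is any base, in windows of 300 bases that include 50 bases after the start. The first base of each repeat was left free, so the N cover the 5 spacer bases and the first base of the second repeat. The promoter table held 7 of the 9 members, without Rdh10 and Crabp2. No match was found in the 4 windows of Stra6, the 3 of Dhrs3, the 2 of Rarg or the single windows of Aldh1a2 and Crabp1. Among all genes of the table, 73 of 26994 (0.27%) had a match in at least 1 window. A match is a string of letters, not a measured binding site.

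Levels are given as CPM, read counts relative to library size after scaling by the trimmed-mean (TMM) method, for replicates 1, 2 and 3 in that order, and as mean ± SD with n = 3 libraries. Gene counts summed to between 4472800 and 7888631 per library, so that 3 counts, the limit a count of 0 allows, correspond to 0.357 to 0.723 CPM. Intervals and limits cover counting error only, since the libraries were amplified from small samples and their reads are not independent molecules. Sorted types were checked on marker lists as summed CPM. The 12 cardiac mesoderm markers summed to 1367 to 1601 in the YFP+ and 1115 to 1275 in the YFP- libraries, against 211 to 276 in endoderm and 293 to 917 in hematopoietic mesoderm. Among these 12, Nkx2-5 alone had lower means in both cardiac fractions than in both other types. It averaged 1.951 CPM in YFP+ and 3.541 in YFP- cells, against 16.02 in endoderm and 16.67 in hematopoietic mesoderm. Its hematopoietic libraries ran from 0 to 49.39 CPM. The 17 endoderm markers summed to 3277 to 6839 in endoderm and stayed under 240 CPM elsewhere, and the 11 blood and endothelium markers reached 1686 to 2908 in the hematopoietic libraries, against 53.3 to 420 in the YFP+ ones. The 6 epiblast and streak markers summed to 1038 to 1181 CPM in endoderm, above every other type. They summed to 633 to 847 in hematopoietic mesoderm, 467 to 580 in YFP+ and 404 to 604 in YFP- libraries. Utf1 (113 CPM) and Nanog (43.2) had their highest means in endoderm, whereas T was highest in hematopoietic mesoderm (283). The part of epiblast-like cells in the endoderm levels below was not tested. The 4 extraembryonic ectoderm markers summed to at most 78.0, in an endoderm library. Single genes could differ widely between libraries of a type. Of the genes that reached 100 counts in at least 1 library of a type, 9.30% had 3 or fewer counts in another library of that type in YFP+ cells, 3.48% in YFP- cells, 0.518% in endoderm and 15.0% in hematopoietic mesoderm. The members with this pattern were Rarg in YFP+ cells, Crabp2 in YFP- cells and Crabp1 in hematopoietic mesoderm.

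**Figure D1:**
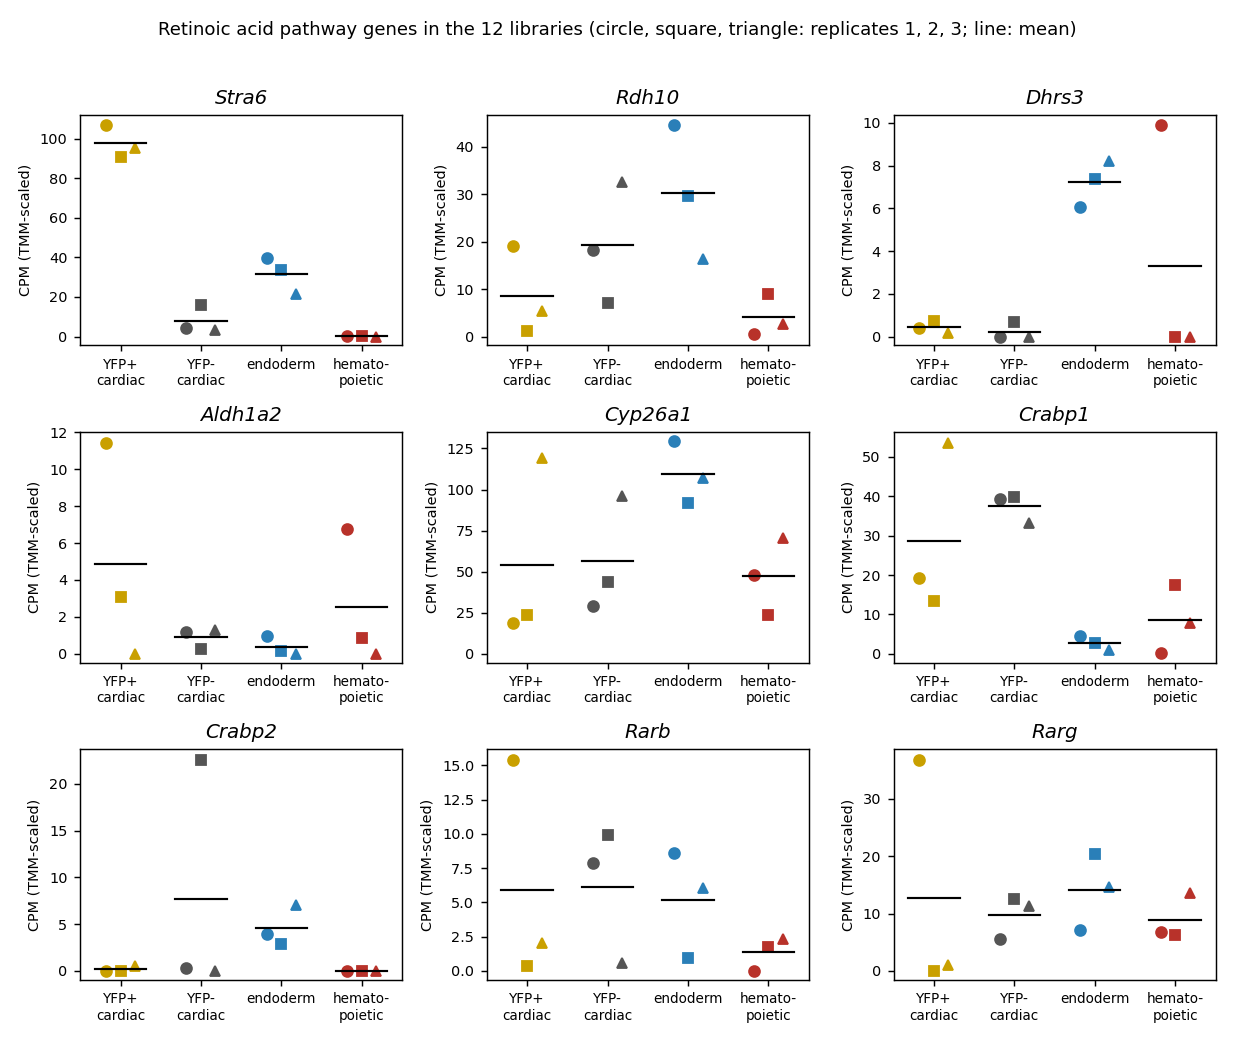
Level of each of the 9 members in the 12 libraries, in CPM on a linear axis per gene; points are libraries and horizontal lines are the means of 3 libraries per sorted type. Stra6 has 4 groups of points that do not overlap, with YFP+ cells between 90.8 and 107 CPM, whereas each of the other 8 members has at least 1 mesoderm type whose libraries lie far from each other, as Cyp26a1 does in YFP+ cells (18.9 to 119 CPM).

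Positions of genes below are from the GENCODE M21 annotation of GRCm38, each with the identifier used in the counts. Stra6, the membrane receptor that takes retinol up from its carrier (ENSMUSG00000032327.8, chr9:58063788-58153996, plus strand), was highest in YFP+ cardiac mesoderm. It read 107, 90.8 and 95.5 CPM there. The YFP- libraries read 4.53, 15.7 and 3.33 CPM. All 3 YFP+ libraries lay close together and far above every YFP- library. Endoderm read 39.6, 33.4 and 21.4 CPM, between the 2 cardiac fractions and overlapping neither. In hematopoietic mesoderm only 2 reads were counted in all, 1 each in replicates 1 and 2. The order was thus YFP+ cells (97.7 ± 8.22 CPM), endoderm (31.5 ± 9.26), YFP- cells (7.85 ± 6.82) and hematopoietic mesoderm (0.138 ± 0.124), and no neighbouring types in it overlapped.

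Between the cardiac fractions the ratio of Stra6 means was 12.4, and libraries with the same replicate number gave ratios of 23.6, 5.78 and 28.7. The smallest of these ratios came from the YFP- library with 15.7 CPM. Here and below, replicate numbers were not taken to pair libraries, so such ratios are not replicate effect sizes. The fitted log2 difference was 3.63. Against endoderm, Stra6 was 3.10-fold higher in YFP+ cells, with a fitted log2 difference of 1.63. In YFP- cells it was 4.01-fold lower than in endoderm, with a log2 difference of -2.00. The 2 fractions thus lay on opposite sides of endoderm. Against the 2 reads of hematopoietic mesoderm the ratio was 714 for YFP+ cells (95% counting interval 197 to 5905), 225 for endoderm (62.0 to 1861) and 59.5 for YFP- cells (16.2 to 495). As in all sorted bulk libraries, fewer cells with the transcript and less transcript per cell cannot be told apart.

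Rdh10, which carries out the first, rate-limiting oxidation of retinol to retinal (ENSMUSG00000025921.7, chr1:16105774-16133734, plus strand), varied widely within the mesoderm types. It read 19.2, 1.09 and 5.37 CPM in YFP+ cells. In YFP- cells it read 18.3, 7.15 and 32.6 CPM. The 2 fractions overlapped, with near-equal levels in the libraries numbered 1 and ratios of 6.54 and 6.07 in favour of YFP- cells in those numbered 2 and 3. Endoderm held 44.5, 29.7 and 16.4 CPM and hematopoietic mesoderm 0.482, 9.01 and 2.73 CPM. These last 2 types did not overlap, and endoderm had the highest mean of the 4 types (30.2 ± 14.1 CPM).

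Dhrs3, a reductase that returns retinal to retinol (ENSMUSG00000066026.8, chr4:144892827-144928209, plus strand), was chiefly an endoderm transcript among the replicated values. Endoderm held 6.04, 7.38 and 8.2 CPM. The YFP+ libraries held 0.416, 0.729 and 0.185 CPM, from 7 reads in all. The YFP- libraries held 0, 0.701 and 0 CPM, from 5 reads in all. Every endoderm library was above every library of both cardiac fractions. In hematopoietic mesoderm 1 library read 9.88 CPM and the other 2 had no read, so its mean of 3.29 CPM rests on that library.

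Aldh1a2, the retinal dehydrogenase that makes most retinoic acid in the early embryo (ENSMUSG00000013584.5, chr9:71215789-71296243, plus strand), was low throughout. It read 11.5, 3.10 and 0 CPM in YFP+ cells, from 55, 17 and 0 reads. In YFP- cells it read 1.17, 0.280 and 1.30 CPM. The YFP+ mean (4.85 ± 5.92 CPM) was above the YFP- mean (0.919 ± 0.557 CPM), but the ranges overlapped, since 1 YFP+ library had no read. Without YFP+ replicate 1 the mean log2 difference turned from 1.05 to -0.11. Endoderm held 0.954, 0.130 and 0 CPM, the lowest mean of the 4 types. Hematopoietic mesoderm held 6.75, 0.866 and 0 CPM, again with most of its reads in 1 library.

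Cyp26a1, the cytochrome P450 that breaks retinoic acid down (ENSMUSG00000024987.5, chr19:37697798-37701536, plus strand), was present in every library. Endoderm held 130, 91.8 and 107 CPM. The YFP+ libraries held 18.9, 23.3 and 119 CPM, and the YFP- libraries 29.3, 43.6 and 95.9 CPM. The fractions had nearly equal means (53.8 ± 56.7 and 56.3 ± 35.1 CPM), and library 3 stood above the other 2 in both. Hematopoietic mesoderm held 47.9, 23.6 and 70.8 CPM, again with the highest value in library 3. Endoderm did not overlap hematopoietic mesoderm, and its 109 ± 19.0 CPM was the highest mean. Libraries with the same replicate number carry the same date in the names of the deposited files, with a different date for each number. What the date marks is not given in the sources used here, and its part in the Cyp26a1 levels was not tested.

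Crabp1, the gene of a cytoplasmic retinoic acid binding protein (ENSMUSG00000032291.8, chr9:54764748-54773110, plus strand), had its highest means in cardiac mesoderm. It read 19.2, 13.3 and 53.7 CPM in YFP+ cells. In YFP- cells it read 39.2, 39.9 and 33.2 CPM, the tightest set among the members in that fraction. The 2 fractions overlapped. Endoderm held 4.45, 2.85 and 1.07 CPM, below every library of both fractions. Hematopoietic mesoderm held 0.241, 17.5 and 7.77 CPM, which overlapped the YFP+ but not the YFP- libraries. The ratio of means to endoderm was 10.3 for YFP+ and 13.4 for YFP- cells.

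Crabp2, which delivers retinoic acid to its nuclear receptors (ENSMUSG00000004885.5, chr3:87948666-87953376, plus strand), followed another pattern. Endoderm held 3.98, 2.85 and 7.01 CPM, from 25, 22 and 59 reads. YFP+ cells had 3 reads in all, every one in replicate 3. YFP- cells read 0.335, 22.6 and 0 CPM, and 161 of their 163 reads came from replicate 2. The endoderm libraries were thus the only set with the transcript in each library. No read was found in hematopoietic mesoderm. Against 3 reads over that group, Crabp2 was at least 23.1-fold higher in endoderm and at least 39.9-fold higher in YFP- cells, the latter through a single library. Between endoderm and YFP+ cells the ratio was 24.7 (95% counting interval 8.24 to 122).

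Rarb, a retinoic acid receptor gene that is itself switched on by retinoic acid (ENSMUSG00000017491.8, chr14:16430839-16819156, minus strand), showed no order among cell types. It read 15.4, 0.365 and 2.04 CPM in YFP+ cells and 7.88, 9.95 and 0.579 CPM in YFP- cells. Endoderm held 8.59, 0.906 and 6.06 CPM and hematopoietic mesoderm 0, 1.73 and 2.31 CPM. All 4 ranges overlapped. The annotation has exons of Top2b on the opposite strand over exons of Rarb, and the strand setting of the counting is not given in the sources used here, so reads of the 2 genes may not be separable.

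Rarg, another retinoic acid receptor gene (ENSMUSG00000001288.8, chr15:102234938-102257517, minus strand), likewise showed no order. The YFP+ libraries held 36.8, 0 and 1.11 CPM. The other types were steadier, with 5.53, 12.6 and 11.3 CPM in YFP- cells, 7.16, 20.5 and 14.6 CPM in endoderm, and 6.75, 6.24 and 13.7 CPM in hematopoietic mesoderm. The YFP+ mean was the higher of the 2 fractions in CPM (12.7 ± 21.0 against 9.81 ± 3.77) but the lower on the log scale, where the mean log2 difference was -1.88. A direction for Rarg between the fractions therefore depends on how its 3 YFP+ libraries are averaged.

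**Figure D2:**
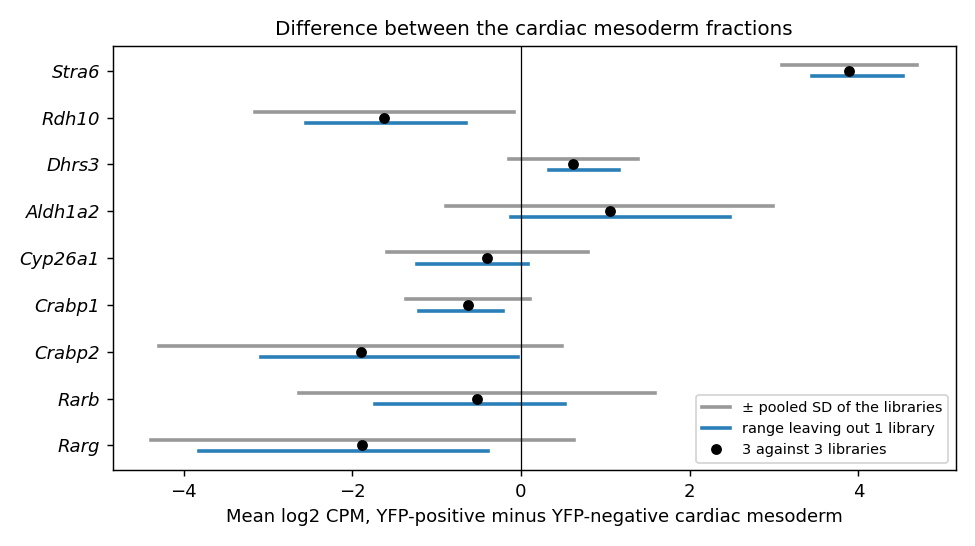
Difference between the cardiac fractions for each member, as the mean log2 CPM of YFP+ minus that of YFP- libraries with a prior count of 2; black points are the differences over 3 against 3 libraries, grey bars plus and minus their pooled SD, and blue bars the range with any 1 library left out. Stra6 stands at 3.89, and for 7 of the other 8 members, Rdh10 apart, the grey bar reaches across 0. The grey bars show the spread of libraries within a fraction and are not a test of the difference.

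Set beside each other, Stra6 was the only member whose 2 cardiac fractions did not overlap. That is 1 of 9 members, against 12.1% of the 14170 genes tested. Its mean log2 difference was 3.89 with a pooled SD of 0.80, and it stayed between 3.45 and 4.53 when any 1 of the 6 libraries was left out. Stra6 was picked with this difference known, so these values describe it and test nothing. For Rdh10 (-1.62, pooled SD 1.54), Crabp2 (-1.90, 2.39), Rarg (-1.88, 2.51) and Crabp1 (-0.63, 0.74) the difference pointed to YFP- cells. Of these 4, only that of Rdh10 was larger than its pooled SD, which is a spread of libraries within a fraction and not an error of the difference. With any 1 library left out all 4 kept their sign. They shrank to as little as -0.66 (Rdh10), -0.03 (Crabp2), -0.39 (Rarg) and -0.215 (Crabp1), in each case without replicate 2 of a fraction. On the CPM scale the Rarg mean was instead higher in YFP+ cells. Dhrs3 pointed to YFP+ cells (0.62, pooled SD 0.77), at levels near the limit of detection. For Cyp26a1 (-0.40) the sign turned without YFP+ replicate 1 (0.09) or YFP- replicate 3 (0.05), and for Rarb (-0.52) without YFP+ replicate 2 (0.52) or YFP- replicate 2 (0.11), as it did for Aldh1a2 without YFP+ replicate 1. The median fitted log2 difference was -0.05 over the 9 members and 0.03 over all genes tested.

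Against endoderm, 4 of 9 members did not overlap YFP+ cells (Stra6 and Crabp1 higher in YFP+, Crabp2 and Dhrs3 lower), beside 30.3% of all genes tested. For YFP- cells 3 of 9 did not overlap endoderm (Crabp1 higher, Dhrs3 and Stra6 lower), beside 29.4%. Stra6 was thus on different sides in these lists, and Crabp1 and Dhrs3 on the same side in both. Against hematopoietic mesoderm, Stra6 alone did not overlap YFP+ cells (1 of 9, beside 14%), and Stra6 and Crabp1 did not overlap YFP- cells (2 of 9, beside 18.6%), with all of these lower in hematopoietic mesoderm. Between endoderm and hematopoietic mesoderm Stra6, Rdh10, Cyp26a1 and Crabp2 did not overlap, all higher in endoderm (4 of 9, beside 34.3%). These comparisons share their libraries, and the members were chosen with the levels known, so nothing is read from the counts.

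Divided by exon length, the levels of different genes can be compared within a type. Mean CPM per kilobase was highest for Crabp1 in both cardiac fractions (35.8 in YFP+, 46.7 in YFP- cells), followed by Cyp26a1 (27.1 and 28.4). Stra6 came next in YFP+ cells at 16.8, but in YFP- cells, at 1.35, it stood below Crabp2, Rdh10 and Rarg as well. In endoderm Cyp26a1 led with 55.2 CPM per kilobase, ahead of Rdh10 (7.26) and Stra6 (5.40). In hematopoietic mesoderm Cyp26a1 (23.9) and Crabp1 (10.6) led and Crabp2 had no read. The breakdown enzyme Cyp26a1 thus exceeded the synthesis enzyme Aldh1a2 per kilobase in every type, with Aldh1a2 between 0.160 in endoderm and 2.14 in YFP+ cells. RNA levels give neither the activity of the enzymes nor the amount of retinoic acid.

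The rest of the pathway was followed with a list of 61 other retinoid genes, of which 38 passed the filter. These genes were tested with edgeR's quasi-likelihood test, two-sided, with Benjamini-Hochberg adjustment over all 14170 genes. Between YFP+ and YFP- cells 0 of the 38 were called at an adjusted p under 0.05, beside 0% of all genes tested. At an unadjusted p under 0.05 there were 2, Stra6l among them, and 1062 (7.49%) among all genes. DESeq2 called 1 of the list and 229 of all genes. By median the list lay at a log2 difference of 0.03, against 0.03 for all genes, with 22 genes higher and 16 lower in YFP+ cells.

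Among the genes of retinol supply, Stra6l, a relative of Stra6 that also binds the retinol carrier, had no read in YFP+ cells, 2.00 ± 2.29 CPM in YFP- cells and 16.7 ± 1.04 CPM in endoderm. Endoderm was thus at least 87.5-fold higher than YFP+ cells, and YFP- cells at least 10.5-fold, against 3 reads over the group. The YFP- libraries read 1.51, 0 and 4.49 CPM. With 1 of them at 0, the 2 fractions overlapped, and the 10.5-fold limit does not hold for each library. Of the 7 tested supply genes 2 were higher and 5 lower in YFP+ cells by the fitted difference.

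The 10 coregulators of nuclear receptors had a median log2 difference of 0.24, with 9 higher in YFP+ cells, and the 4 tested receptor genes one of -0.74. The median of all genes tested was 0.03. Against endoderm 9 coregulators were higher in YFP+ cells too (median 0.29), so this is not particular to the cardiac fractions. Against hematopoietic mesoderm 6 were higher (median 0.14). The coactivator Ncoa1 was 87.6 ± 30.7 CPM in YFP+ against 27.3 ± 20.7 CPM in YFP- cells, without overlap (adjusted p = 0.749). Tbx5, a cardiac transcription factor gene that responds to retinoic acid, read 20.2, 85.5 and 71.1 CPM against 0, 4.90 and 29.98 CPM (adjusted p = 0.77). Hoxb1, a classical direct target of retinoic acid, read 43.1, 1.28 and 26.5 CPM in YFP+ against 74.1, 93.2 and 82.0 CPM in YFP- cells. It did not overlap, but the spread in YFP+ cells was wide (log2 -1.82 ± 1.67 SE, adjusted p = 0.907). Rdh14, a retinol dehydrogenase gene with 95.1 CPM in a single YFP+ library, overlapped (adjusted p = 0.869). These 4 adjusted p-values are from edgeR. In all, 5 of the 38 did not overlap between the fractions, beside 12.1% of all genes. Ncoa1, Crebbp and Ncor1 were higher in YFP+ cells, and 2, Hoxb1 among them, were lower. Crebbp and Ncor1 are named after their values were seen.

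**Figure D3:**
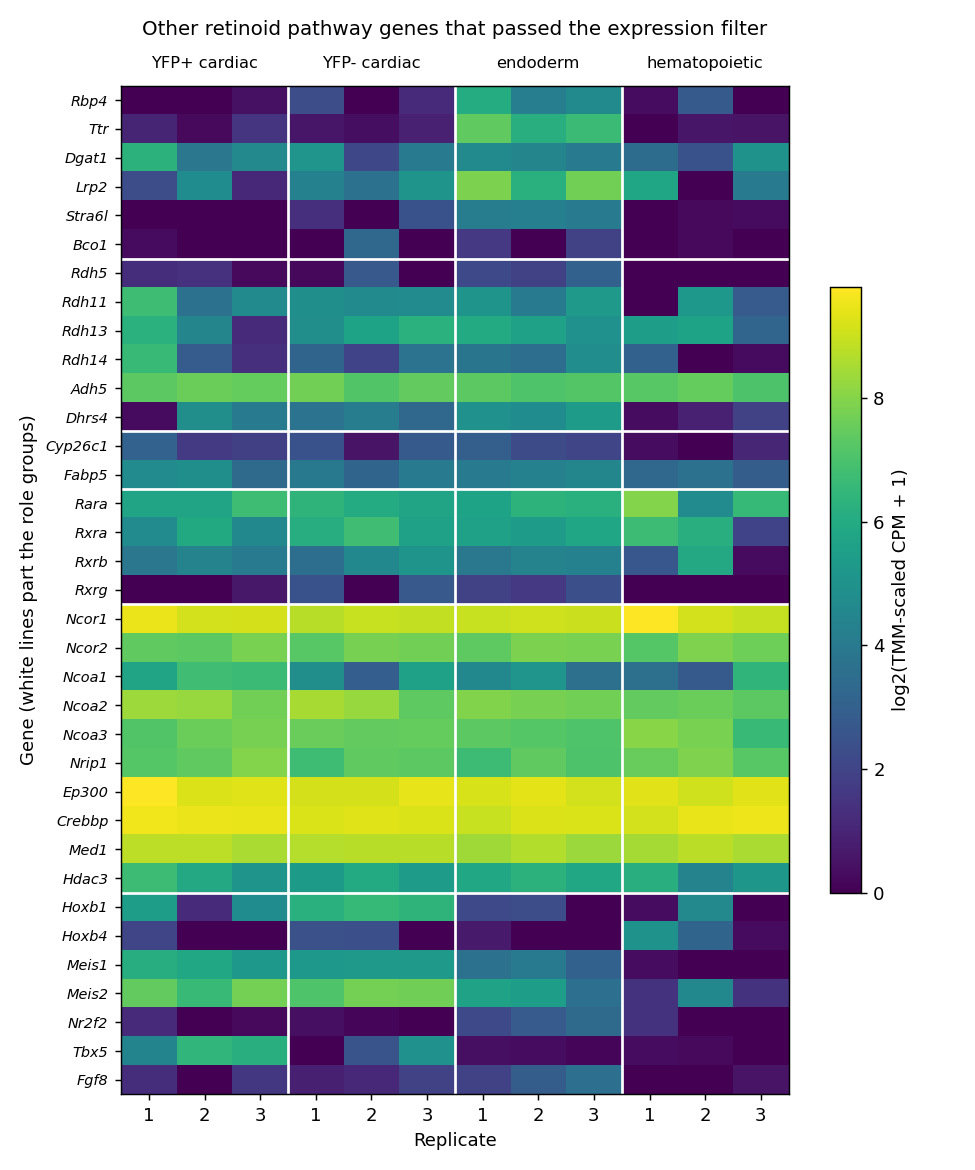
Levels of 35 of the 38 tested retinoid pathway genes outside the members in the 12 libraries, as log2(CPM + 1), grouped by role. Ttr is bright in endoderm only, and Meis1, and Meis2 apart from replicate 2, are dark in hematopoietic mesoderm.

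Differences that passed the test involved endoderm or hematopoietic mesoderm. Against endoderm, 2 of the 38 were lower in YFP+ cells, beside 0.586% of all genes called lower, and 2 in YFP- cells, beside 0.6%. Both pairs included Ttr, which carries Rbp4 in the circulation. Ttr stood at 113 ± 48.7 CPM against 1.02 ± 0.834 and 0.551 ± 0.297 CPM (log2 -6.76 ± 1.07 and -7.63 ± 1.11 SE, adjusted p = 0.00598 and 0.00353, edgeR). Without endoderm replicate 1 the call of Ttr against YFP+ cells was lost (edgeR adjusted p = 0.0708, the highest over the alternatives, whose lowest was 2.78e-18 with DESeq2). Lrp2, an endocytic receptor that recovers carrier-bound vitamins, and Rbp4 were also most abundant in endoderm (171 ± 85.7 and 35.6 ± 26.0 CPM), but neither was called, and both are named here after their values were seen, like Stra6l. Ttr and Rbp4 are also among the 17 endoderm markers, and Tbx5 among the 12 cardiac mesoderm markers.

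Against hematopoietic mesoderm, 3 of the 38 were higher in YFP+ cells, beside 1.15% of all genes called higher, 1 in YFP- cells, beside 0.402%, and 4 in endoderm, beside 3.23%. Meis1, a homeobox gene known to respond to retinoic acid, was higher in all 3 types, at 53.8 ± 15.7 CPM in YFP+, 37.6 ± 1.23 in YFP- and 11.6 ± 4.16 in endoderm. A single read was found in hematopoietic mesoderm, so that the ratio for YFP+ cells was 782 with a 95% counting interval of 140 to 30930. Its edgeR adjusted p-values of 0.00222, 0.00422 and 0.00269 kept under 0.05 in every alternative, at up to 0.0204. Meis2 (161 ± 58.8 against 8.74 ± 12.2 CPM, log2 4.18 ± 0.92 SE, edgeR adjusted p = 0.0426) and Tbx5 (58.9 ± 34.3 against 0.138 CPM, edgeR adjusted p = 0.0479) were higher in YFP+ cells. Both lay near the threshold. The call of Meis2 was lost when any 1 library of the pair except hematopoietic replicate 2 was left out (5 of 6 fits) and that of Tbx5 in all 6, with adjusted p-values up to 0.0878 and 0.101 over the alternatives. Ttr was higher in endoderm than in hematopoietic mesoderm (113 ± 48.7 against 0.313 CPM, log2 8.35 ± 1.16 SE, edgeR adjusted p = 0.00171, at up to 0.0231 over the alternatives). Of the 22 tested genes of the interconversion, retinal oxidation, breakdown, receptor and coregulator lists edgeR called 0 in any pair, beside 6.82% of all genes called in at least 1 pair. At an unadjusted p under 0.05 there were 7, beside 39.7% of all genes, and DESeq2 called 3 (Cyp26c1, Dhrs4 and Rdh5), beside 25.9%. None of the 4 listed retinal oxidation genes (Aldh1a1, Aldh1a3, Aldh8a1 and Cyp1b1) passed the filter.

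Endoderm expresses Foxa2 and in these libraries also held Stra6, so endoderm markers were set beside Stra6. In YFP+ libraries 1, 2 and 3 the 17 endoderm markers summed to 111, 97.7 and 239 CPM, and in all YFP- libraries to between 38.5 and 115. The means of 12 of the 17 were higher in YFP+ cells, and 3 of these (Cer1, Apob and Cubn) did not overlap. No marker of the 17 was lower in YFP+ cells without overlap. Of all genes tested, 5.04% were higher in YFP+ cells without overlap and 7.04% lower. Stra6 in the same 3 YFP+ libraries was 107, 90.8 and 95.5 CPM. The part of endoderm cells in the Stra6 level of YFP+ cells was not tested. In YFP+ replicate 1, 4 markers were at 0 (Amn, Rbp4, Trf and Foxa1). In replicate 2, 8 were at 0, among them Foxa2, Sox17 and Hnf4a. In replicate 3, with the highest sum, 2 were at 0 (Apoa4 and Trf). In the YFP- libraries 4 to 7 were at 0, with Foxa2 at 0 in all 3.

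**Figure D4:**
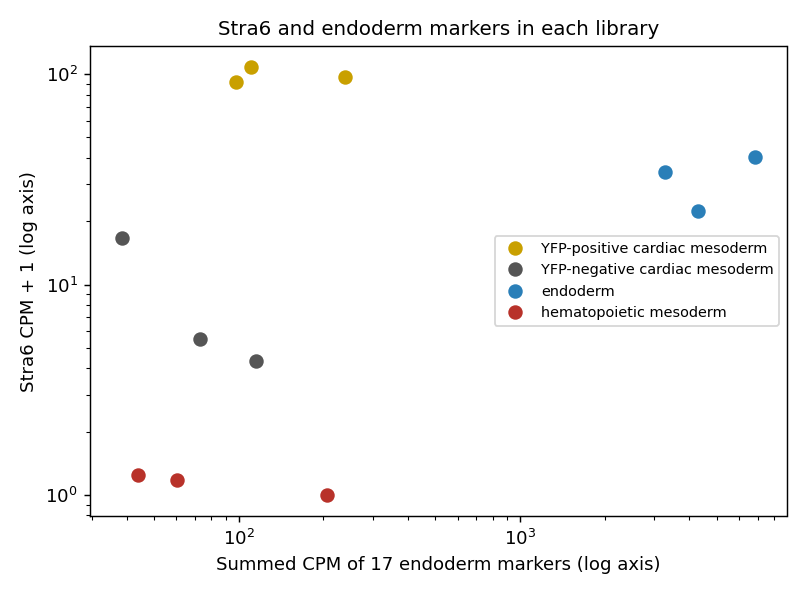
Stra6 against the summed level of 17 endoderm markers, in CPM (Stra6 as CPM + 1), with 1 point per library and log axes. The 3 YFP+ points lie above the endoderm points in Stra6 and far to their left, with marker sums of 97.7 to 239 CPM.

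Genes with a similar pattern were ranked by Pearson's r of log2 CPM over the 12 libraries, given as a description. Likeness over libraries of 4 types is set largely by the types. Closest to Stra6 were Ptprz1 (r = 0.951), Srd5a3 (0.943), Stag2 (0.935), Gnas (0.929) and Epb41l3 (0.923). Ptprz1, a receptor tyrosine phosphatase gene, followed the same order by mean. It held 40.8 ± 19.4 CPM in YFP+ cells, 15.1 ± 6.49 in endoderm, 8.62 ± 9.25 in YFP- cells and 0.0803 in hematopoietic mesoderm. Unlike for Stra6, its endoderm libraries overlapped those of both cardiac fractions. Srd5a3 had the same order of means, at 34.6 ± 10.7, 21.1 ± 5.49, 5.94 ± 1.41 and 1.62 ± 1.08 CPM, and its neighbouring types did not overlap. For Cyp26a1 the closest were Mmp16 (0.933), Mir1188 (0.929), Sp5 (0.922), Gstt3 (0.916) and Cdcp1 (0.902). Sp5, a transcription factor gene, was like Cyp26a1 highest on average in endoderm (43.0 ± 10.03 CPM) and high in 1 of the 3 YFP+ libraries (49.0 CPM, against 0.547 in the lowest). Closest to Aldh1a2 were Atp5g3 (0.912), Mlec (0.902), Psma5 (0.867), Eny2 (0.865) and Klhl9 (0.863). Aldh1a2 itself had 55 and 17 reads in YFP+ replicates 1 and 2 and 28 in hematopoietic replicate 1. No other library held more than 9, so its r values rest on few libraries. The type means of Mlec ran only from 435 to 494 CPM.

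Genes other than the members whose promoter window held the response element shown for Cyp26a1 and Rarb could be followed as well. Of the 73 genes with a match 38 were in the files, and 16 that are not members passed the filter. Between the cardiac fractions 0 of these 16 were called by edgeR, 0 had an unadjusted p under 0.05, DESeq2 called 0, and 3 did not overlap, beside 12.1% of all genes. Their median log2 difference was -0.10, against 0.03 for all genes. Against endoderm the median was -1.70 for YFP+ and -0.63 for YFP- cells, against 0.01 for all genes in both. In each of these 2 comparisons 8 did not overlap, beside 30.3% and 29.4% of all genes, and 0 were called. Against hematopoietic mesoderm the median was -0.67 for YFP+ cells, 0.19 for YFP- cells and 0.55 for endoderm. In endoderm against hematopoietic mesoderm 2 were called, both higher in endoderm, beside 3.23% of all genes (Cfap45 and Trim2, named after their values were seen).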

How the data were processed

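RNA was measured in 12 libraries of sorted cells; per the labels' protocols, total RNA was purified with the Agilent Absolutely RNA nanoprep kit and libraries were made with low-input NuGEN kits (RNA-seq system V2, Ovation Ultralow V2). The authors deposited raw read counts per gene for 38924 versioned Ensembl genes and 5 summary categories, which were left out. Per the submitters' processing notes, mm10, STAR 2.5.0a, Picard, HTSeq 0.6.0 and DESeq2 were used, with no roles given. The annotation release and strand setting are not given in the sources used here. The share of all counted reads that fell in genes was 18.3% to 21.5%. Groups came from sample titles. No pair of libraries held identical values.

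The tests used edgeR 4.0.16 under R 4.3.3 (TMM scaling, default expression filter, quasi-likelihood fit of all 12 libraries with 1 coefficient per type, 8 residual degrees of freedom), with Benjamini-Hochberg adjustment over 14170 genes in each of 6 pairs and a threshold of 0.05. The fit was also run on simulated counts with known changes, as a check of their sign and of false calls. That check set no requirement on how many true changes are called. SEs come from the log2 fold change and F. Member differences are means of log2 CPM with a prior count of 2. Ratios over groups with 1 to 3 reads carry exact binomial 95% intervals, and groups at 0 were set to 3 reads. Positions and exon lengths are from GENCODE M21 (GRCm38), and promoters from RefSeq. Members, lists and tests were chosen with earlier results of these data known. The genes named are all members, list genes called in any pair, the 3 with the largest difference between the fractions in each direction at a mean of at least 10 CPM, and the 5 genes most like Stra6, Aldh1a2 and Cyp26a1. Some list genes that this rule names are not reported here, but they stay in the counts. Alternatives were RLE scaling, no filter, a replicate block, DESeq2 1.42.0 and leaving out each library.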

Additional observations from a re-analysis of the deposited data

How the results depend on the processing

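Each list gene called kept its sign under the alternatives tried (RLE scaling, no filter, replicate block, DESeq2, leaving out each library), but the balance of higher and lower calls over all genes did not always hold. For YFP+ cells against endoderm it went from 135 higher and 83 lower to 398 and 780 with DESeq2. For YFP- cells against endoderm it went from 100 and 85 to 275 and 478 with DESeq2 and to 124 and 129 without a filter. For endoderm against hematopoietic mesoderm it went from 457 and 343 to 268 and 277 with the replicate block, and to 86 and 98, 91 and 97, and 87 and 93 without endoderm replicates 1, 2 and 3. RLE scaling kept each count within 1.5 times and moved the median of all genes by less than 0.05 on the log2 scale in every pair. DESeq2 called more genes: 229 instead of 0 between the cardiac fractions, 1178 instead of 218 and 753 instead of 185 for YFP+ and YFP- cells against endoderm, 1809 instead of 253 and 1352 instead of 84 for them against hematopoietic mesoderm, and 2239 instead of 800 for endoderm against hematopoietic mesoderm. In the retinoid list it called 1, 9, 5, 5, 5 and 10 genes in the same order of pairs, instead of 0, 2, 2, 3, 1 and 4. Without a filter 2 genes were called between the fractions, and 174 genes, 2 of them in the list, between YFP- cells and hematopoietic mesoderm.

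Over all genes tested, same-numbered libraries of different types did not deviate together (mean correlation 0.014, range -0.018 to 0.032 over 18 pairs, none over 0.1), so the numbers were not taken to pair libraries. A correlation over all genes cannot tell whether single genes varied with the number or its date. With the replicate number as a block, 133 genes (1 of the list) were called between YFP+ cells and hematopoietic mesoderm and 31 between YFP- cells and hematopoietic mesoderm. In that block fit Meis2 and Tbx5 had adjusted p-values of 0.0547 and 0.0921 between YFP+ cells and hematopoietic mesoderm, so neither was called. The block changed no other call of a list gene named in the text.

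With 1 library left out, calls over all genes ran from 0 to 1 between the fractions, 71 (endoderm 1) to 159 for YFP+ and 69 (endoderm 3) to 100 for YFP- cells against endoderm, 106 (YFP+ 3) to 426 (hematopoietic 3) and 16 (YFP- 2) to 247 (hematopoietic 2) for them against hematopoietic mesoderm, and 180 (endoderm 3) to 976 between the last 2. In the list they ran from 0 to 0, 0 (endoderm 1) to 2, 2 to 2, 1 to 3, 1 to 3 (hematopoietic 2) and 3 to 5. Without 1 library a type has 2, assumed to vary like the others. Levels under 0.723 CPM rest on 3 or fewer reads in the shallowest library, which limits what can be said of Dhrs3, Crabp2 and Aldh1a2 in mesoderm.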
